A study of Mus musculus with 18 samples.

Results

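The matrix proteases and their inhibitors studied here were the mouse genes with a symbol of *Mmp*, *Timp*, *Adamts* or *Adamtsl* followed by a number. Entrez identifiers in both count tables were matched to RefSeq symbols, and 51 of the 24100 genes listed met this rule: 23 *Mmp*, 4 *Timp*, 19 *Adamts* and 5 *Adamtsl* genes. The rule used no measured value.

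Matrix metalloproteinases (MMPs) are zinc-dependent enzymes that cut collagens, proteoglycans and other proteins of the extracellular matrix. They are made as inactive proenzymes, and some are secreted while the membrane-type MMPs are anchored at the cell surface. The tissue inhibitors of metalloproteinases (TIMPs) bind the active enzymes and block them. ADAMTS enzymes are secreted relatives that cleave aggregating proteoglycans or remove the N-terminal propeptide of fibrillar procollagens, and ADAMTS-like proteins lack the catalytic domain and associate with fibrillin microfibrils. Mesenchymal cells are a main source of many of these proteins in connective tissue.

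RNA was measured in C3H/10T1/2 cells, a mouse line of mesenchymal progenitor cells (MPCs), without differentiation cues. The study asked how loss of the chromatin remodeler ATRX alters transcription in these cells. *Atrx* WT cells came from the line that received the Cas9 vector with no guide. The *Atrx* KO cells were 1 clone made with guide sg5 (clone G7) and 1 clone made with guide sg6 (clone B10). Each line was profiled in 3 polyA-selected and 3 rRNA-depleted libraries, 18 in all. Because every line is a single clone or control line and nothing in the labels ties the libraries to separate derivations, p-values measure the spread between libraries of a line, which may be technical, and clone and guide cannot be told apart.

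The WT polyA libraries totalled 27544833 to 80772108 estimated counts, the deeper sg5 libraries 161036799 to 235346363 and the sg6 libraries 58918732 to 71896907. The rRNA-depleted libraries held 20135336 to 33187136 counts. *Atrx* itself was lower in each clone: its log2 fold change was -1.24 ± 0.10 (SE) in sg5 and -1.20 ± 0.10 in sg6 in polyA libraries, and -1.39 ± 0.21 and -1.31 ± 0.20 in rRNA-depleted libraries. None of the 12 mesenchymal progenitor markers examined was at 0 in any line. In the polyA libraries they summed to 2871 to 3116 CPM (counts scaled to TMM library size) in WT, 3451 to 3720 CPM in sg5 and 3833 to 4359 CPM in sg6. The markers did not move together. *Thy1* was called lower in sg5 and higher in sg6 (log2 fold changes of -1.73 and 7.03). *Eng* was called higher in both clones (2.17 and 1.73) and *Ly6a* in sg6 (1.21), while *Pdgfra* (-0.61 and -0.92) and *Vcam1* (-0.66 and -0.89) were lower in both, not called. The 5 epithelial markers summed to 3.11 to 6.29 CPM in WT, 0.897 to 1.72 CPM in sg5 and 0.355 to 0.868 CPM in sg6. The 4 endothelial markers summed to 1.29 to 1.99 CPM in WT, 9.43 to 14.2 CPM in sg5 and 8.44 to 11 CPM in sg6. Of these *Tek* alone was higher, at 0.823 to 1.22 CPM in WT, 9.09 to 13.8 CPM in sg5 and 8.06 to 10.7 CPM in sg6, while *Pecam1* was called lower in both clones (log2 fold changes of -1.37 and -1.22) and *Cdh5* and *Kdr* had at most 0.332 CPM in any library. The 5 leukocyte markers summed to 4.52 to 6.45 CPM over the 9 libraries. The part of these marker differences in the results on proteases was not tested.

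The first question was which proteases and inhibitors these cells transcribe. Levels between genes were compared only per length, as the mean TMM-scaled CPM of a line per kb of annotated exon (called RPKM here). In WT polyA libraries, *Timp2*, which blocks MMPs and also takes part in the activation of pro-MMP2 at the cell surface, had the highest level per length at 752 RPKM. It was followed by *Timp3*, the matrix-bound inhibitor, at 148 RPKM, by the gelatinase gene *Mmp2* at 143 RPKM, by *Mmp14*, which encodes the membrane-type collagenase MT1-MMP, at 115 RPKM, and by *Adamts1*, a versican- and aggrecan-cleaving enzyme, at 104 RPKM. The order of *Timp3*, *Mmp2*, *Mmp14* and *Adamts1* rests on means whose libraries overlap, since the WT libraries spanned 373 to 844 CPM for *Adamts1* alone. In both KO clones *Mmp2* held rank 2 and *Mmp14* rank 3, and *Timp3* stood at rank 4.

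At the other end of the scale, many members were barely detected. In polyA libraries 24 of the 51 members had at least 1 CPM in every library, 14 fell below the filter on low counts with at most 12 counts in any library, and 4 had 0 counts in every library. In rRNA-depleted libraries 20 members had at least 1 CPM in every library, 25 fell below the filter with at most 28 counts, and 7 had 0 counts throughout. A count of 0 is read here as below 3 counts in that library, and this floor covers counting error only.

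**Figure D1:**
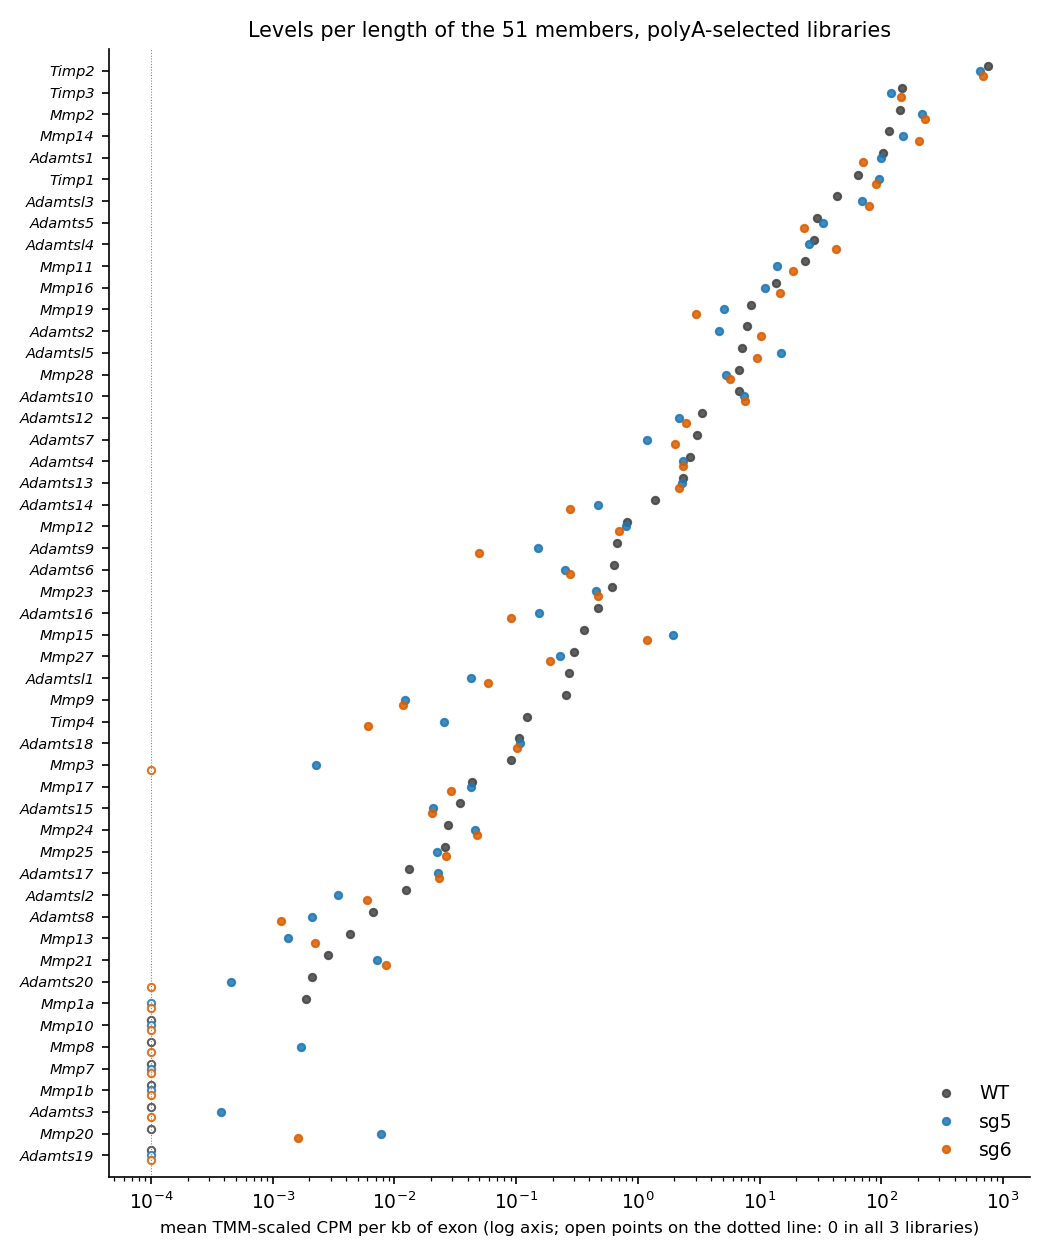
Mean level per length of the 51 members in the 3 lines, polyA-selected libraries, as TMM-scaled CPM per kb of exon on a log axis, with members ordered by their WT level. Each point is the mean of 3 libraries, and open points on the dotted line stand for 0 in all 3; *Timp2* is at the top with 752 in WT, and *Mmp7*, *Mmp10*, *Mmp1b* and *Adamts19* are at 0 in every line.

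The weakly detected members included most of a cluster of MMP genes on chromosome 9. In the GENCODE annotation of GRCm38 (mm10), 10 *Mmp* genes lay within 427.1 kb, from 7272514 to 7699585, in the order *Mmp13*, *Mmp12*, *Mmp1b*, *Mmp3*, *Mmp1a*, *Mmp10*, *Mmp8*, *Mmp27*, *Mmp20* and *Mmp7*. They include genes of collagenases, stromelysins, the macrophage elastase, matrilysin and the enamel protease, while *Mmp27* belongs to none of these classes. The annotation types *Mmp1a* as a polymorphic pseudogene. Apart from *Mmp12* and *Mmp27*, the cluster together had 0 to 13 estimated counts per library in polyA and 0 to 8 counts in rRNA-depleted RNA.

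*Mmp3*, which encodes stromelysin-1, was the most counted of those 8 genes in WT. It had 4, 9 and 11 estimated counts in the 3 WT polyA libraries, 0, 0 and 2 in sg5, and 0 in each sg6 library. Against a floor of 3 counts per library, the WT mean of 0.162 CPM was at least 3.34-fold higher than in sg6. In rRNA-depleted libraries *Mmp3* had 2, 4 and 7 counts in WT and 0 in the 6 KO libraries. These values lay below the filter in both kinds of library, so *Mmp3* was not tested, and 14.6% of its 31-base transcript words were shared with other genes, mostly *Mmp10*.

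*Mmp3*, *Mmp12*, *Mmp27*, *Adamts13* and *Mmp24* are described because of their values, after these were seen. *Mmp12* and *Mmp27* differed between the kinds of library more than between the lines. *Mmp12* summed to 4999 estimated counts over the polyA libraries and 3 counts over the rRNA-depleted ones, and *Mmp27* to 469 and 0. The tables were made with different counters, and 6.59% of the 31-base words of *Mmp12* occurred in other transcripts; the part of either in this gap was not tested. *Adamts13*, the protease that cuts von Willebrand factor, showed the same contrast, with 9.72 to 12.4 CPM in polyA libraries and 0 to 0.0557 CPM in rRNA-depleted ones. *Mmp24* lay the other way, with 0.0890 to 0.373 CPM in polyA and 4.98 to 12.0 CPM in rRNA-depleted libraries, and 13.1% of its words were shared with BC029722.

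The promoters of the cluster had a letter pattern in common that the choice of members did not use. The letters TGANTCA, the core of the site bound by AP-1 (Fos and Jun proteins) and identical on both strands, were searched from 250 bases before to 50 bases after each RefSeq gene start (GRCm38.p6). They occurred in 8 of the 10 cluster genes, in 0 of the 26 other members with a promoter sequence, and in 8.97% of 27025 genes. No promoter sequence was at hand for 15 members. The 8 matches are shown with 10 bases on each side, 5′ to 3′ on the strand of the gene, with TGANTCA in capitals, because most genes of the cluster hold them.
Mmp13, chr9:7272469-7272495, plus strand: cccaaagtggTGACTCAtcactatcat
Mmp12, chr9:7347320-7347346, plus strand: acatcaacagTGAGTCAgatagaggat
Mmp1b, chr9:7388103-7388129, minus strand: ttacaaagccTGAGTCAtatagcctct
Mmp3, chr9:7445766-7445792, plus strand: gaagcaattaTGAGTCAgttttcgggt
Mmp1a, chr9:7464058-7464084, plus strand: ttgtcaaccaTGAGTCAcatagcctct
Mmp10, chr9:7502269-7502295, plus strand: agcacccatgTGAGTCAtgcttagtga
Mmp20, chr9:7628126-7628152, plus strand: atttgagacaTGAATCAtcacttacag
Mmp7, chr9:7692017-7692043, plus strand: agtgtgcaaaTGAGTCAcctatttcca

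The capitals began 35 to 95 bases before the gene start, and *Mmp8* and *Mmp27* had no match in this window. A match is a run of letters and not evidence of binding. Of the AP-1 genes *Fos*, *Fosb*, *Fosl1*, *Fosl2*, *Jun*, *Junb* and *Jund*, 7 were tested and 0 were called in either clone against WT in either kind of library by edgeR's quasi-likelihood test. In each comparison 1 to 3 of them had an unadjusted p below 0.05, a cut at which no share of all genes was taken. In polyA, *Jund* was higher by 0.76 in sg5 and 0.98 in sg6 on the log2 scale (adjusted p = 0.0048 and 0.0011, edgeR). *Fos* was higher by 0.68 in sg5 (adjusted p = 0.036, edgeR). These values passed the adjusted p but stayed within a log2 fold change of 1, and were picked out after they were seen.

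Each KO clone was then compared with WT. A member was called when its log2 fold change exceeded 1 in size and edgeR's quasi-likelihood test put its adjusted p under 0.05, the threshold the study used. In polyA libraries 37 members could be tested. In sg5 against WT, 2 were called higher and 7 lower, against 3.18% and 6.96% of all 15480 genes tested (10.1% in either direction). In sg6 against WT, 1 was called higher and 7 lower, against 3.64% and 7.54% of all genes (11.2% in either direction). The median log2 fold change was -0.22 in both clones over the members tested, and within 0.01 of 0 over all genes. Both comparisons use the same WT libraries, so their values are given side by side and not as support for each other.

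In rRNA-depleted libraries 26 members could be tested, and each had also been tested in polyA. In sg5 against WT, 1 was called higher and 4 lower, against 3.04% and 4.31% of 13303 genes (7.35% in either direction). In sg6 against WT, 0 were called higher and 2 lower, against 2.16% and 3.59% of genes (5.75% in either direction). An unadjusted p below 0.05 was found for 10 of the 26. The share of all genes at that unadjusted p was not taken, so this count cannot be read as a trait of the members. DESeq2 called 1 member higher in that comparison. The members' medians were 0.00 and -0.01, with all genes at 0.08 and 0.04. In bulk RNA, fewer cells with a transcript and less of it per cell cannot be told apart.

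In polyA the calls were spread over the families, while in rRNA-depleted RNA all lower calls were *Adamts* genes. However, *Mmp9*, *Timp4* and *Adamtsl1*, called lower in both clones in polyA, fell below the filter there and could not be called. With no filter, *Mmp19* (adjusted p = 0.0023, edgeR) and *Timp4* (adjusted p = 0.0053) were also called lower in sg6 in rRNA-depleted RNA. Over all genes, 6.96% were called lower in sg5 and 7.54% in sg6 in polyA, and 4.31% and 3.59% in rRNA-depleted RNA. Higher calls made up 3.18% and 3.64% in polyA, and 3.04% and 2.16% in rRNA-depleted RNA. Of the 15 *Adamts* genes tested in polyA, 0 were called higher and 4 lower in sg5 (*Adamts7*, *Adamts9*, *Adamts14*, *Adamts16*), and 0 higher and 3 lower in sg6 (*Adamts9*, *Adamts14*, *Adamts16*). Of the 11 tested in rRNA-depleted RNA, 4 were called lower in sg5 (*Adamts2*, *Adamts7*, *Adamts9*, *Adamts14*) and 2 in sg6 (*Adamts9*, *Adamts14*). Of the 14 *Mmp* genes tested in polyA, 1 was called higher and 1 lower in sg5, and 1 higher and 2 lower in sg6. Of the 4 *Timp* and 4 *Adamtsl* genes tested in polyA, 1 of each family was called lower in each clone, and 1 *Adamtsl* gene was called higher in sg5. Of the 9 *Mmp* genes tested in rRNA-depleted RNA, 1 was called higher in sg5 and 0 in sg6, and 0 were called lower. Of the 3 *Timp* and 3 *Adamtsl* genes tested there, 0 were called in either clone. The difference in calls between the families was not tested.

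*Adamts9* showed the largest fall among members tested in both kinds of library in sg6. It encodes a proteoglycan-cleaving enzyme active on versican and aggrecan and lies on chromosome 6 from 92772699 to 92943492 on the minus strand. The polyA libraries had 9.29, 9.97 and 10.9 CPM in WT, 2.61, 2.16 and 2.11 CPM in sg5, and 0.636, 0.787 and 0.817 CPM in sg6. The 3 lines did not overlap, with WT highest and sg6 lowest. This was a log2 fold change of -2.13 ± 0.15 in sg5 (adjusted p = 2.37e-05, edgeR) and -3.75 ± 0.17 in sg6 (adjusted p = 2.03e-06).

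The rRNA-depleted libraries, which are separate libraries, gave *Adamts9* at 4.90, 4.87 and 5.88 CPM in WT, 0.962, 1.39 and 0.502 CPM in sg5 and 0.172, 0.410 and 0.394 CPM in sg6. The order of the lines was as in polyA, again without overlap. Log2 fold changes were -2.48 ± 0.37 (adjusted p = 0.0014, edgeR) and -3.97 ± 0.41 (adjusted p = 9.01e-05). The level in sg5 exceeded that in sg6 by 1.62 ± 0.16 on the log2 scale in polyA (adjusted p = 0.00047, edgeR), which passed the threshold, and by 1.5 ± 0.43 in rRNA-depleted RNA (adjusted p = 0.28), which did not. An antisense gene, A730049H05Rik, overlaps *Adamts9* and shares 8.84% of its 31-base words, and the strand setting of the counting is not given in the sources used here.

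*Adamts14* and *Adamts2* both encode procollagen N-propeptidases, which trim fibrillar procollagens before fibrils assemble, and they had different patterns. *Adamts14* (chromosome 10, 61197112 to 61273438, minus strand) had 6.92, 6.89 and 7.87 CPM in WT, 2.70, 2.39 and 2.23 CPM in sg5 and 1.23, 1.69 and 1.44 CPM in sg6 in polyA. It was lower in both clones without overlap, by -1.57 ± 0.16 (adjusted p = 0.00016, edgeR) and -2.32 ± 0.17 (adjusted p = 2.2e-05). In rRNA-depleted RNA it had 1.71, 1.81 and 1.53 CPM in WT, 0.154, 0.279 and 0.116 CPM in sg5 and 0.474, 0.298 and 0.438 CPM in sg6. There the fall was -3.23 ± 0.42 in sg5 (adjusted p = 0.00045, edgeR) and -2.05 ± 0.37 in sg6 (adjusted p = 0.0062). So sg6 was the lower clone in polyA and sg5 in rRNA-depleted RNA, and neither difference of sg5 from sg6 was called (0.75 ± 0.16, adjusted p = 0.031, in polyA, inside the size threshold, and -1.17 ± 0.46, adjusted p = 0.52, in rRNA-depleted RNA, edgeR).

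*Adamts2* (chromosome 11, 50602084 to 50807573, plus strand) separated the clones from each other. Its polyA levels were 69.4, 76.3 and 75.9 CPM in WT, 41.4, 41.9 and 47.3 CPM in sg5, and 91.9, 95 and 100.1 CPM in sg6, so WT lay between the clones. Against WT the log2 fold change was -0.76 ± 0.08 in sg5 (adjusted p = 0.00018, edgeR) and 0.37 ± 0.08 in sg6 (adjusted p = 0.0070), both within a log2 fold change of 1. The direct comparison of sg5 with sg6 gave -1.14 ± 0.08 (adjusted p = 5.9e-05), past the threshold.

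In rRNA-depleted libraries *Adamts2* had 36.8, 37.9 and 43.6 CPM in WT, 18.7, 20.7 and 15.4 CPM in sg5 and 55.8, 32.0 and 37.3 CPM in sg6. Only sg5 stood apart there. The log2 fold change was -1.11 ± 0.21 in sg5 against WT (adjusted p = 0.0069, edgeR), 0.08 ± 0.20 in sg6 against WT (adjusted p = 0.93) and -1.19 ± 0.21 in sg5 against sg6 (adjusted p = 0.018). Without sg5 library 3 the first of these was -0.98, inside the threshold. The difference between the clones was not called without sg5 library 3 (-1.09, adjusted p = 0.086, edgeR), without sg6 library 1 (-0.91, adjusted p = 0.0498) or in a fit of the 2 clones alone (-1.21, adjusted p = 0.074).

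*Adamts7* encodes an enzyme known to cleave cartilage oligomeric matrix protein (COMP), as does the product of *Adamts12*. Its polyA levels were 12.2, 17.2 and 28.5 CPM in WT, 7.77, 6.43 and 8.20 CPM in sg5 and 10.1, 12.5 and 15.3 CPM in sg6. The sg5 libraries lay below the WT libraries, while sg6 overlapped them. The log2 fold change was -1.37 ± 0.28 in sg5 (adjusted p = 0.0073, edgeR) and -0.61 ± 0.28 in sg6 (adjusted p = 0.13). Without WT library 3, the highest, the sg5 value was -0.98, inside the threshold.

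In rRNA-depleted RNA *Adamts7* had 2.67, 4.28 and 4.98 CPM in WT, 1.5, 1.78 and 1.24 CPM in sg5 and 2.67, 1.68 and 2.28 CPM in sg6. edgeR gave a log2 fold change of -1.41 ± 0.31 in sg5 (adjusted p = 0.021, edgeR) and -0.86 ± 0.30 in sg6 (adjusted p = 0.21). The sg5 call was lost without WT library 2 (-1.33, adjusted p = 0.084, edgeR), without WT library 3 (-1.23, adjusted p = 0.11), without sg5 library 3 (-1.26, adjusted p = 0.087) and with no filter on low counts (-1.36, adjusted p = 0.074). *Adamts7* shares 1.48% of its words with the overlapping gene *Tbc1d2b*.

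*Adamts16* had 2.83, 3.62 and 3.14 CPM in WT, 1.42, 0.890 and 0.826 CPM in sg5 and 0.518, 0.659 and 0.675 CPM in sg6 in polyA. No KO library reached a WT library. On the log2 scale the difference from WT was -1.62 ± 0.24 in sg5 (adjusted p = 0.0012, edgeR) and -2.38 ± 0.25 in sg6 (adjusted p = 0.00019). In rRNA-depleted RNA the values were -0.98 ± 0.47 (adjusted p = 0.32) and -1.04 ± 0.47 (adjusted p = 0.38), on 0.186 to 1.53 CPM, and did not pass.

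*Adamts1*, the most abundant *Adamts* gene per length, was not called. It had 373, 432 and 844 CPM in WT, 546, 556 and 491 CPM in sg5 and 505, 344 and 277 CPM in sg6 in polyA, so the WT libraries alone spanned the range of both clones except the lowest 2 sg6 libraries. Log2 fold changes were -0.05 ± 0.31 in sg5 and -0.55 ± 0.31 in sg6 (adjusted p = 0.93 and 0.21, edgeR). In rRNA-depleted RNA they were 0.46 ± 0.18 and 0.27 ± 0.18 (adjusted p = 0.23 and 0.63).

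Of the 4 *Adamtsl* genes tested in polyA, *Adamtsl1* fell in both clones and *Adamtsl5* rose in sg5. *Adamtsl1* (chromosome 4, 85514172 to 86428385, plus strand) had 1.26, 3.78 and 5.45 CPM in WT, 0.60, 0.436 and 0.611 CPM in sg5 and 0.902, 0.611 and 0.746 CPM in sg6. The WT libraries differed from one another by more than the KO libraries did, yet no KO library reached the lowest WT library. The log2 fold change was -2.69 ± 0.44 in sg5 (adjusted p = 0.0023, edgeR) and -2.23 ± 0.45 in sg6 (adjusted p = 0.0053). In rRNA-depleted RNA it had at most 28 counts in a library and was not tested.

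*Adamtsl5*, whose protein binds fibrillin microfibrils, had 42.2, 29.1 and 29.9 CPM in WT, 78.1, 66.9 and 69.6 CPM in sg5 and 50.3, 44.2 and 40.9 CPM in sg6 in polyA. The sg5 libraries were the highest, and sg6 overlapped WT. The fitted log2 fold change was 1.09 ± 0.15 in sg5 (adjusted p = 0.00087, edgeR) and 0.42 ± 0.15 in sg6 (adjusted p = 0.058), and the sg5 value was 0.98 without WT library 2, inside the threshold. In rRNA-depleted RNA the values were 0.83 ± 0.24 (adjusted p = 0.073) and 0.48 ± 0.24 (adjusted p = 0.43).

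**Figure D2:**
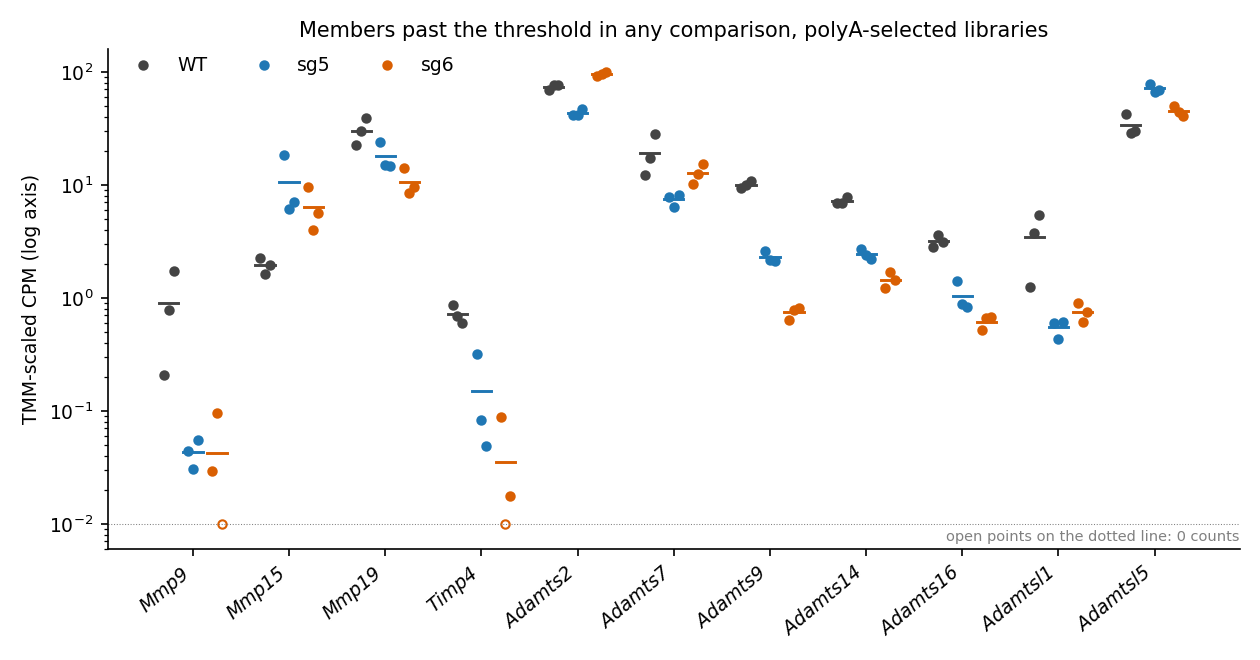
TMM-scaled CPM (log axis) of the 11 members that passed the threshold in any comparison, in each polyA-selected library of WT, sg5 and sg6. Points are libraries, bars are means of 3, and open points on the dotted line are 0 counts; WT lies above both clones without overlap for *Mmp9*, *Timp4*, *Adamts9*, *Adamts14*, *Adamts16* and *Adamtsl1*, and below both for *Mmp15*.

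Among the *Mmp* genes, *Mmp15* was called higher. It encodes the membrane-type enzyme MT2-MMP and lies on chromosome 8 from 95352268 to 95375080 on the plus strand. The polyA libraries had 2.271, 1.64 and 1.96 CPM in WT, 18.5, 6.08 and 7.12 CPM in sg5 and 9.59, 4.0 and 5.59 CPM in sg6. No WT library reached a KO library, and library 1 was the highest in each line. On the log2 scale the difference from WT was 2.45 ± 0.48 in sg5 (adjusted p = 0.0055, edgeR) and 1.73 ± 0.48 in sg6 (adjusted p = 0.023), and without sg5 library 1 the sg5 value was 1.77, still called.

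In rRNA-depleted RNA *Mmp15* had 0.613, 0.221 and 0.473 CPM in WT, 6.16, 6.57 and 2.63 CPM in sg5 and 3.27, 0.783 and 0.613 CPM in sg6. The sg5 libraries stood clear of WT, and the lowest sg6 library was at the level of the highest WT library. The log2 fold change was 3.55 ± 0.62 in sg5 (adjusted p = 0.0048, edgeR) and 1.83 ± 0.63 in sg6 (adjusted p = 0.19). The polyA call in sg6 was lost without WT library 2 (1.59, adjusted p = 0.089, edgeR), without WT library 3 (1.74, adjusted p = 0.056) and without sg6 library 1 (1.30, adjusted p = 0.080), while sg6 in rRNA-depleted RNA passed with DESeq2 (1.89, adjusted p = 0.042) and with no filter on low counts (1.87, adjusted p = 0.0046). Leaving out 1 library moved that sg6 value from 0.72 (adjusted p = 0.72, edgeR, without sg6 library 1) to 2.25 (adjusted p = 0.096, without sg6 library 3), and it was called in 0 of the 9 such fits.

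*Mmp9*, the gene of the second gelatinase, was scarce in these cells and scarcer in both clones. In polyA it had 6, 68 and 78 estimated counts in WT, 7, 7 and 9 in sg5 and 2, 6 and 0 in sg6. Scaled for depth these were 0.210, 0.778 and 1.73 CPM in WT, 0.0442, 0.0305 and 0.0555 CPM in sg5 and 0.0296, 0.0964 and 0 CPM in sg6. The groups did not overlap, and WT library 1 was far below the other WT libraries. This came to a log2 fold change of -4.42 ± 0.73 in sg5 (adjusted p = 0.0024, edgeR) and -4.40 ± 0.86 in sg6 (adjusted p = 0.0046). Without WT library 3 these were -3.66 and -3.65, and without sg6 library 2 the sg6 value was -5.76, all of them called. In rRNA-depleted RNA *Mmp9* had 2, 6 and 2 counts in WT and 1 count over the 6 KO libraries, below the filter.

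*Mmp2*, the abundant gelatinase, went the other way within the threshold. The polyA libraries had 456, 435 and 559 CPM in WT, 889, 649.6 and 665 CPM in sg5 and 873, 675 and 775.5 CPM in sg6. The KO libraries all lay above the WT libraries. On the log2 scale the difference from WT was 0.60 ± 0.16 in sg5 (adjusted p = 0.019, edgeR) and 0.68 ± 0.16 in sg6 (adjusted p = 0.0099), so the adjusted p passed and the size did not.

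In rRNA-depleted RNA *Mmp2* had 93.9, 84.0 and 82.5 CPM in WT, 194.3, 194.4 and 129 CPM in sg5 and 174, 109.8 and 121.5 CPM in sg6, again without overlap between WT and either clone. The log2 fold change was 0.99 ± 0.20 in sg5 (adjusted p = 0.012, edgeR) and 0.64 ± 0.20 in sg6 (adjusted p = 0.13). The sg5 value lay at the threshold: it was 1.04 (adjusted p = 0.012) with median-of-ratios size factors, 1.1 without WT library 1, 1.18 without sg5 library 3, and 1.01 to 1.03 without any one sg6 library, and was called in each of these.

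*Mmp14* had 596, 596 and 871 CPM in WT, 1022, 797 and 888 CPM in sg5 and 1162, 1125 and 1387 CPM in sg6 in polyA. The sg6 libraries were above the WT libraries and sg5 overlapped them. Its log2 fold change was 0.39 ± 0.17 in sg5 (adjusted p = 0.12, edgeR) and 0.83 ± 0.17 in sg6 (adjusted p = 0.0054), the latter inside the size threshold, and it was called without WT library 3 (1.04). In rRNA-depleted RNA the values were 0.75 ± 0.26 and 0.88 ± 0.26 (adjusted p = 0.15 and 0.11), and without sg6 library 2 the sg6 value was called (1.12, adjusted p = 0.036).

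*Mmp19* encodes a secreted MMP and was called lower in sg6. It had 22.4, 29.7 and 38.7 CPM in WT, 24.1, 15 and 14.5 CPM in sg5 and 14.0, 8.53 and 9.57 CPM in sg6 in polyA. The sg6 libraries were below WT, and the highest sg5 library overlapped WT. On the log2 scale the difference from WT was -1.50 ± 0.28 in sg6 (adjusted p = 0.0034, edgeR) and -0.76 ± 0.27 in sg5 (adjusted p = 0.065), and sg5 was called without its library 1 (-1.04, adjusted p = 0.026). In rRNA-depleted RNA the values were -1.08 ± 0.41 in sg6 (adjusted p = 0.25) and -0.20 ± 0.40 in sg5 (adjusted p = 0.86), and the sg6 value was called with a replicate block (-1.09, adjusted p = 0.0065, edgeR) and with no filter on low counts (-1.07, adjusted p = 0.0023). *Mmp19* shares 21.6% of its words with the antisense neighbor *Tmem198b*.

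**Figure D3:**
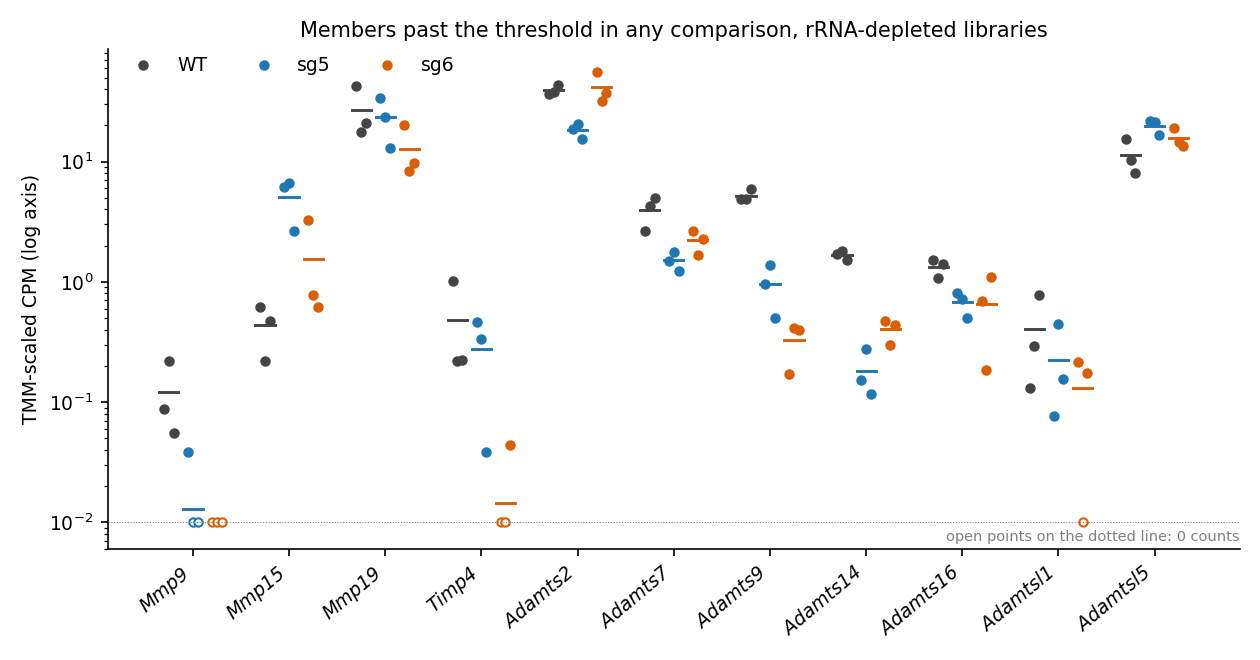
The same 11 members in the rRNA-depleted libraries, as TMM-scaled CPM on a log axis, with points for libraries, bars for means of 3 and open points on the dotted line for 0 counts. *Adamts9* and *Adamts14* lie lower in both clones without overlap, *Mmp15* is higher in sg5, and *Mmp9*, *Timp4* and *Adamtsl1* are near 0 and were not tested.

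The inhibitors were compared next. Of the 4 *Timp* genes, *Timp1*, *Timp2* and *Timp3* were not called in either kind of library, and *Timp4* was called lower in both clones in polyA. *Timp2* had 2835, 2620.2 and 3331 CPM in WT, 3184, 2165 and 2175 CPM in sg5 and 3201, 2209 and 2649 CPM in sg6 in polyA, and each clone overlapped WT. Its log2 fold change was -0.22 ± 0.19 in sg5 and -0.12 ± 0.19 in sg6 (adjusted p = 0.42 and 0.66, edgeR), and -0.02 ± 0.22 and -0.07 ± 0.22 in rRNA-depleted RNA. The sign of the sg5 value in rRNA-depleted RNA turned with median-of-ratios size factors (0.02), so no direction is given for it.

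*Timp3* had 1061, 1155 and 1411 CPM in WT, 1105, 945 and 892 CPM in sg5 and 1400, 1105 and 1075 CPM in sg6 in polyA. The lines overlapped. Its log2 fold change was -0.30 ± 0.15 in sg5 and -0.02 ± 0.15 in sg6 (adjusted p = 0.16 and 0.94, edgeR), and 0.17 ± 0.21 and 0.04 ± 0.21 in rRNA-depleted RNA (adjusted p = 0.75 and 0.97). *Timp3* overlaps the opposite-strand gene *Syn3* and shares 21.2% of its words with it.

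*Timp1* had 80.9, 52.7 and 38.4 CPM in WT, 80, 97.8 and 76.0 CPM in sg5 and 99.4, 77.6 and 64.6 CPM in sg6 in polyA. The highest WT library lay within the range of each clone. Its log2 fold change was 0.56 ± 0.26 in sg5 and 0.49 ± 0.26 in sg6 (adjusted p = 0.13 and 0.18, edgeR), and -0.05 ± 0.28 and 0.34 ± 0.28 in rRNA-depleted RNA (adjusted p = 0.96 and 0.72). Leaving out 1 library gave 0.35 to 0.89 in sg5 in polyA (lowest adjusted p = 0.014, edgeR). In sg6 it gave 0.27 to 0.82 (lowest adjusted p = 0.018, edgeR). *Timp1* was called in 0 of these 9 fits in either clone.

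*Timp4* was scarce. It had 25, 61 and 27 estimated counts in WT, 51, 19 and 8 in sg5 and 6, 0 and 1 in sg6, which came to 0.873, 0.698 and 0.60 CPM in WT, 0.322, 0.0829 and 0.0493 CPM in sg5 and 0.0888, 0 and 0.0178 CPM in sg6. The log2 fold change was -2.26 ± 0.66 in sg5 (adjusted p = 0.031, edgeR) and -4.21 ± 0.92 in sg6 (adjusted p = 0.0078). Without sg6 library 1 the sg6 value was -6.22, and without sg5 library 1 the sg5 value was -3.38. The sg5 call was lost in 5 of the 9 fits that left out 1 library, with log2 fold changes of -2.13, -2.29 and -2.37 without WT library 1, 2 or 3 and -1.94 and -1.86 without sg5 library 2 or 3 (adjusted p = 0.058, 0.088, 0.052, 0.11 and 0.082, edgeR). In rRNA-depleted RNA *Timp4* had 23, 6 and 8 counts in WT, 12, 6 and 1 in sg5 and 0, 0 and 1 in sg6, and fell below the filter.

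**Figure D4:**
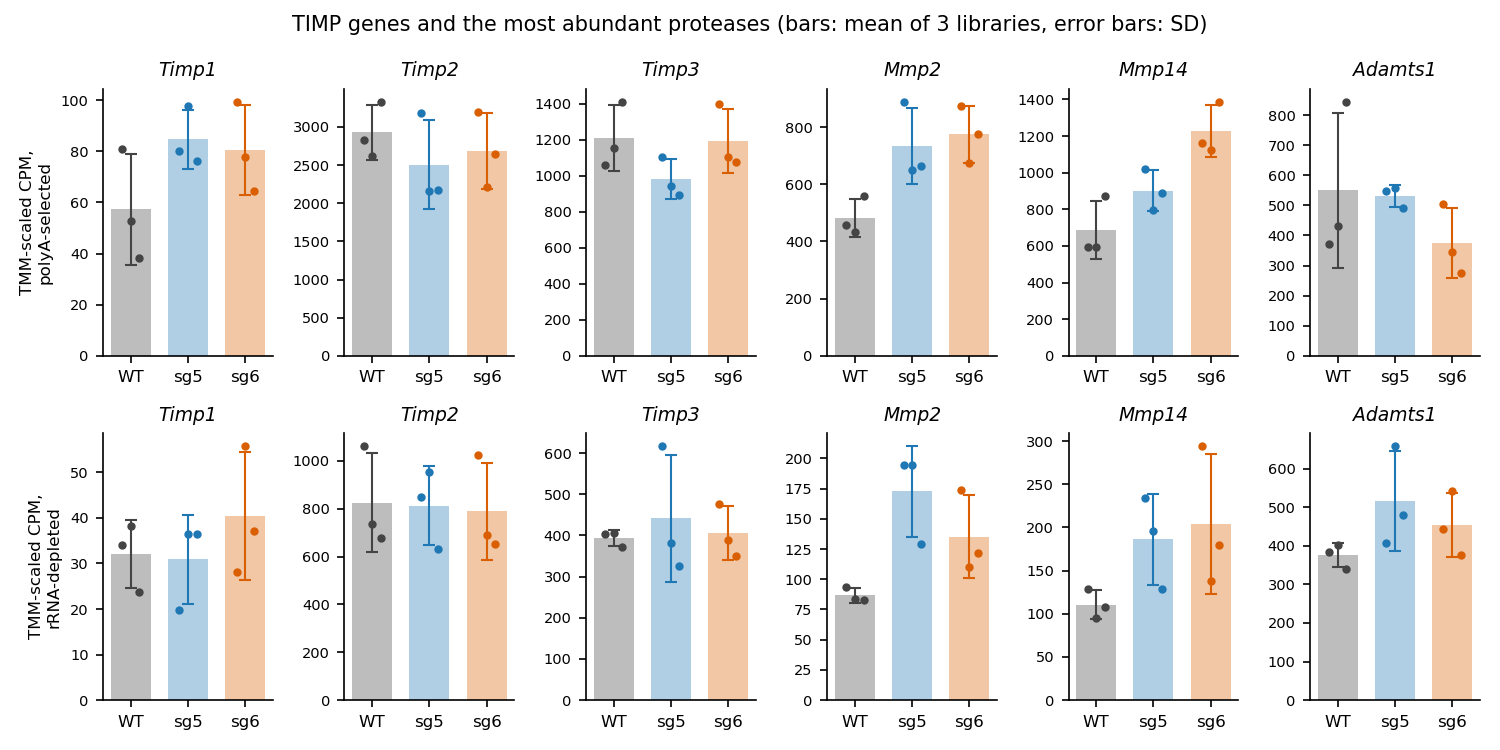
TMM-scaled CPM of *Timp1*, *Timp2*, *Timp3*, *Mmp2*, *Mmp14* and *Adamts1* in polyA-selected (top) and rRNA-depleted (bottom) libraries of WT, sg5 and sg6, with axes starting at 0. Bars are means of 3 libraries, error bars are SD and points are libraries; *Mmp2* is above WT in every KO library of both kinds, and the *Timp* genes overlap between the lines.

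Summed per length, the inhibitor genes outweighed the protease genes of the *Mmp* family in every library. The sums were chosen after the values were seen and are given without a test. In polyA the 4 *Timp* genes summed to 965 ± 99.8 RPKM in WT, 859 ± 160.0 RPKM in sg5 and 927 ± 162 RPKM in sg6 (mean ± SD, n = 3), and the 23 *Mmp* genes to 314 ± 60.4, 408 ± 58.4 and 480.0 ± 43.0 RPKM. The ratio of the *Timp* sum to the *Mmp* sum was 3.43, 3.10 and 2.79 in WT, 2.20, 2.16 and 1.94 in sg5 and 2.24, 1.83 and 1.72 in sg6, lower in each KO library than in each WT library. In rRNA-depleted RNA it was 4.36, 4.04 and 3.19 in WT, 2.58, 2.93 and 3.08 in sg5 and 2.80, 3.83 and 2.89 in sg6, where sg6 overlapped WT. *Timp2*, *Mmp2* and *Mmp14* made up most of these sums.

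A few members passed the adjusted p without the size, and those not named above were picked out after their values were seen. *Mmp11* (stromelysin-3) was at -0.76 ± 0.23 in sg5 in polyA (adjusted p = 0.036, edgeR) and -0.91 ± 0.18 in rRNA-depleted RNA (adjusted p = 0.011). *Adamts12* was at -0.64 ± 0.15 in sg5 and -0.46 ± 0.15 in sg6 in polyA (adjusted p = 0.014 and 0.046), and at 0.05 ± 0.18 and -0.12 ± 0.18 in rRNA-depleted RNA, where neither passed. *Adamtsl3* was at 0.68 ± 0.14 in sg5 and 0.87 ± 0.14 in sg6 in polyA (adjusted p = 0.0068 and 0.0016), and at 0.24 ± 0.17 and 0.53 ± 0.17 in rRNA-depleted RNA (adjusted p = 0.52 and 0.15). *Adamtsl4* was at 0.60 ± 0.12 in sg6 (adjusted p = 0.0041, edgeR) and -0.14 ± 0.11 in sg5 (adjusted p = 0.40) in polyA, and at 0.33 ± 0.38 in sg6 and 0.41 ± 0.38 in sg5 in rRNA-depleted RNA, where neither passed.

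The clones were also compared directly. In polyA 1 of 37 members was called higher and 1 lower in sg5 against sg6, against 1.36% and 1.25% of all genes, namely *Adamts9* and *Adamts2* as given above. In rRNA-depleted RNA 0 of 26 were called higher and 1 lower (*Adamts2*), against 0.556% and 0.925% of genes. With no filter on low counts, *Mmp15* was called higher in sg5 than in sg6 there (1.72 ± 0.37, adjusted p = 0.0089, edgeR). In polyA 3 further members had an adjusted p below 0.05 inside the size threshold, *Adamts14* (0.75, adjusted p = 0.031, edgeR), *Adamtsl5* (0.66, adjusted p = 0.036) and *Adamtsl4* (-0.74, adjusted p = 0.0063), and for each of them the sg5 and sg6 libraries did not overlap.

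The polyA and rRNA-depleted libraries have no library in common, so their fold changes could be set against each other. Across the 26 members tested in both, the log2 fold changes of sg5 against WT had the same sign in 18 and those of sg6 in 22, with Pearson's r of 0.886 and 0.923 across genes, given as a description because genes are not independent replicates and the lines are the same. Of the 6 members called in polyA in sg5 and tested in both, all 6 had the same sign in rRNA-depleted RNA and 4 were called there. In sg6 the figures were 5, 5 and 2. For sg5 against sg6, 17 of the 26 members had the same sign, with Pearson's r of 0.617. Both members called in polyA in that comparison kept their sign, and 1 was called in rRNA-depleted RNA. Signs kept and calls repeated were not counted over all genes, so these figures describe the members only. *Adamts2* in sg5 was called in rRNA-depleted RNA and had an adjusted p below 0.05 inside the size threshold in polyA.

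**Figure D5:**
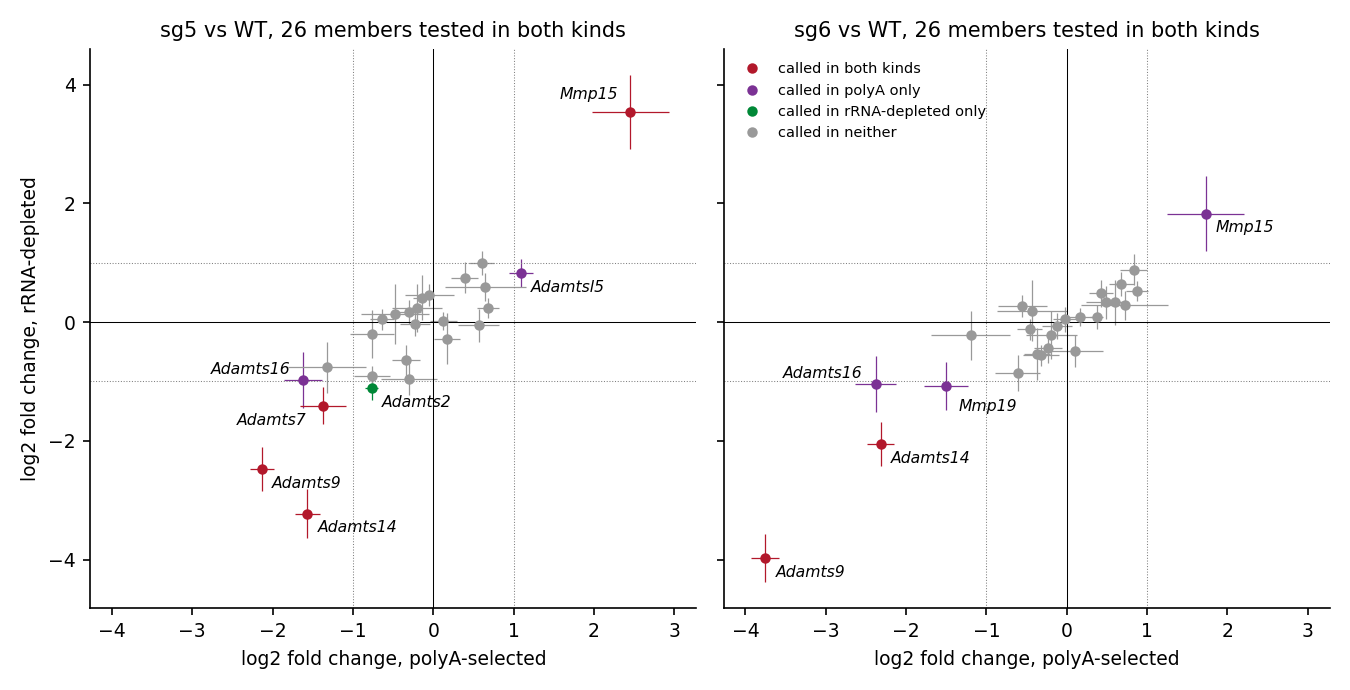
Log2 fold changes of the 26 members tested in both kinds of library, polyA-selected on the x axis and rRNA-depleted on the y axis, for sg5 against WT (left) and sg6 against WT (right). Bars are standard errors, dotted lines mark a log2 fold change of 1 in either direction, and colors show the calls; *Adamts9* and *Adamts14* are called lower in both kinds in both clones and *Mmp15* higher in both kinds in sg5.

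How many members had libraries that did not overlap was read against all genes. In polyA 16 of 37 members had every sg5 library on one side of every WT library and 18 every sg6 library, against 41.5% and 42.4% of all genes. In rRNA-depleted RNA these were 14 and 11 of 26, against 36.3% and 31.3%. The difference of the members from other genes in this was not tested.

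Other genes of the pathway were taken from lists of activators, other inhibitors, ADAM proteases, matrix substrates and microfibril partners. These counts stand against 3.18% of all genes called higher and 6.96% lower in sg5 in polyA, and 3.64% higher and 7.54% lower in sg6. The same shares in rRNA-depleted RNA were 3.04% higher and 4.31% lower in sg5, with 2.16% higher and 3.59% lower in sg6. Of 9 tested genes for MMP activation in polyA, 1 was called higher in sg5 and 0 in sg6. That gene was *Pcsk6*, a proprotein convertase, with 3.14, 1.84 and 1.0 CPM in WT, 14.8, 23.0 and 14.9 CPM in sg5 and 1.92, 0.691 and 0.604 CPM in sg6. Its log2 fold change was 3.17 in sg5 (adjusted p = 0.0018, edgeR) and -0.84 in sg6 (adjusted p = 0.24), and the difference between the clones was 4.02 ± 0.52 (adjusted p = 0.0021). *Plau*, named after its values were seen, rose inside the size threshold by 0.77 in sg5 and 0.36 in sg6 in polyA (adjusted p = 0.00048 and 0.019, edgeR). Its rRNA-depleted libraries showed no rise. The means there were 20.05 CPM in WT, 16.6 CPM in sg5 and 18.2 CPM in sg6, and each clone overlapped WT. In rRNA-depleted RNA 1 of 7 tested was called higher in sg5, again *Pcsk6* (2.78, adjusted p = 0.0091, edgeR), and 1 lower, *Plat*, the gene of tissue plasminogen activator (-1.24, adjusted p = 0.022), which was at 0.10 in polyA (adjusted p = 0.75) and is named after its values were seen.

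Of 8 other inhibitors and clearance receptors tested in polyA, 1 was called higher in sg5, *Serpine2*, the serine protease inhibitor protease nexin-1 (1.43, adjusted p = 0.0019, edgeR, and 1.09, adjusted p = 0.048, in rRNA-depleted RNA). In sg6 0 were called, and 5 of the 8 had an unadjusted p below 0.05, a cut at which no share of all genes was taken. Inside the size threshold in polyA, *Reck* rose by 0.54 in sg5 and 0.66 in sg6 (adjusted p = 0.0088 and 0.0029, edgeR). *Lrp1* rose by 0.46 in sg6 (adjusted p = 0.011, edgeR), and *Serpinf1* fell by 0.27 in sg5 (adjusted p = 0.034, edgeR). *Reck*, *Lrp1* and *Serpinf1* were named after their values were seen. Calls by DESeq2 were not taken for these lists.

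Of 9 ADAM genes tested in polyA, 1 was called higher and 2 lower in each clone. *Adam12* rose by 1.52 in sg5 and 1.60 in sg6 on the log2 scale (adjusted p = 0.043 and 0.033, edgeR). *Adam19* fell by 2.44 and 1.91 and *Adam23*, an ADAM without protease activity, fell by 4.94 and 3.60. *Adam23* had 15.6, 21.9 and 21.6 CPM in WT against 0.865, 0.493 and 0.574 CPM in sg5 and 1.46, 1.62 and 1.81 CPM in sg6. In rRNA-depleted RNA *Adam19* and *Adam23* were called lower in both clones, and *Adam12* was called higher in sg5 but not in sg6.

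Among the substrates, the type IV collagen genes *Col4a1* and *Col4a2* were called higher in both clones in polyA. *Col4a1* rose by 1.05 and 1.11 and *Col4a2* by 1.08 and 1.01 in sg5 and sg6, 2 of 2 and 2 of 4 of the higher calls among the 18 substrates tested, with *Tnc*, named after its value was seen, called lower in both. In rRNA-depleted RNA 5 of the 16 substrates tested were called higher in sg5 and 1 in sg6. *Col4a1* was called higher in both clones (1.22 and 1.11) and *Col4a2* in sg5 (1.06). The other higher calls in sg5 there were *Col2a1*, *Nid2* and *Hspg2*. *Hspg2* had 78.7, 445 and 71.5 CPM in the sg5 libraries, so its mean rested on library 2. *Nid2* and *Hspg2* were named after their values were seen. *Tnc* was called in neither clone in rRNA-depleted RNA. It had 153, 147 and 151 CPM in WT, 157, 258 and 125 CPM in sg5 and 104, 85.3 and 64.1 CPM in sg6. Thus sg5 overlapped WT for *Tnc*, and sg6 lay below WT. *Col2a1* was called higher in sg6 in polyA (1.11, adjusted p = 0.042, edgeR) and in sg5 in rRNA-depleted RNA (1.13, adjusted p = 0.040). The remaining higher call in sg6 in polyA was *Nid1* (1.14, adjusted p = 0.00019, edgeR), named after its value was seen. Of the 10 microfibril partners of ADAMTS-like proteins tested in polyA, 0 were called higher and 2 lower in sg5, and 2 higher and 2 lower in sg6. The higher calls in sg6 were *Fbn1* (1.01, adjusted p = 0.013, edgeR) and *Mfap5* (2.79, adjusted p = 0.00074), and in rRNA-depleted RNA *Lox* was called higher in both clones (1.399 and 1.14). These 3 genes were named after their values were seen. Of the lower calls, *Fbn2*, a fibrillin gene, fell by 1.77 and 3.35 and *Ltbp4* fell by 2.59 and 2.26, and both were called lower in sg6 in rRNA-depleted RNA (-2.77 and -2.36).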

How the data were processed

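For the polyA libraries, the authors trimmed reads with Rfastp, quantified transcripts with Salmon on the mm10 known genes, and deposited each gene's expected count (the estimated count from tximport), without normalization. The submitters' processing notes give Salmon 0.8.2. Reads of the rRNA-depleted libraries were aligned with STAR (2.27.10a in those notes), and the authors deposited the TElocal read count of each gene and transposable element (TE) locus. The strand setting of either counting is not given in the sources used here. Reads shared between genes are split by Salmon and by TElocal in different ways, which can move a gene with shared sequence.

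Expected counts were rounded to whole numbers. edgeR 4.0.16 (R 4.3.3) was used with filterByExpr (minimum count 10, minimum total 15), TMM scaling and the quasi-likelihood test on the 9 libraries of a kind in one fit of 3 groups, with no replicate block. P-values were adjusted by Benjamini-Hochberg over all features, with genes and TE loci together in the rRNA-depleted fit. Errors of log2 fold changes are the fold change over the square root of its F statistic. Gene lengths and positions come from GENCODE M21 and promoters from RefSeq. Each fit was tested on simulated data. Figures were drawn with matplotlib 3.10.9.

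Named were the members that passed the threshold in any comparison of a clone with WT, the *Timp* genes, the 5 members highest per length in WT polyA libraries, and list genes called in both kinds of library. The members and lists were chosen with earlier results of these data known. Alternatives were DESeq2 1.42.0, median-of-ratios size factors, 2 other count filters, the block, fits of only the groups compared, thinned counts, genes without TE loci, and leaving out each library.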

Additional observations from a re-analysis of the deposited data

Results flagged for a closer look

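A difference between the clones, tested directly in one fit, marked 2 members. *Adamts2* was lower in sg5 than in sg6, with a log2 fold change of -1.14 in polyA and -1.19 in rRNA-depleted libraries (edgeR's quasi-likelihood test, adjusted p = 5.9e-05 and 0.018), and every sg5 library was below every sg6 library in both kinds. *Adamts9* was higher in sg5 than in sg6 by 1.62 on the log2 scale in polyA (adjusted p = 0.00047). Each clone stands for 1 guide, so guide and clone cannot be told apart. No group had the 4 libraries needed to look for a single outlying library.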

How the results depend on the processing

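The number of members called changed by over 1.5 times in rRNA-depleted RNA only, among the alternatives run. In sg5 against WT it was 5, and 2 with at least 10 counts in every library. In sg6 against WT it was 2, and 0 with that filter and 5 with no filter, and in sg5 against sg6 it was 1, and 2 with no filter and 0 with only those groups fitted. The stricter filter tests fewer members; the cause of the other shifts was not tested. Leaving out 1 library at a time gave 7 to 10 members in sg5, 7 to 9 in sg6 and 2 in sg5 against sg6 in polyA, and 4 to 7, 2 to 3 and 0 to 1 in rRNA-depleted RNA, with 0 in the last without sg5 library 3.

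Signs turned for values near 0. *Timp2* in sg5 in rRNA-depleted RNA was 0.0161 with DESeq2 and with median-of-ratios size factors and 0.0059 with no filter, and *Timp3* in sg6 there was -0.0047 with at least 10 counts. Leaving out 1 library gave -0.26 to 0.40 for *Adamts1* in sg5 and -0.16 to 0.11 for *Timp3* in sg6 in polyA. In rRNA-depleted RNA it gave -0.16 to 0.26 for *Adamts2* in sg6, -0.54 to 0.34 for *Mmp19*, -0.24 to 0.22 for *Timp1*, -0.16 to 0.25 for *Timp2* and -0.12 to 0.37 for *Timp3* in sg5, and -0.28 to 0.21 for *Timp2* and -0.0637 to 0.18 for *Timp3* in sg6.

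The deviations of same-numbered libraries from the mean of their line correlated at 0.0257 to 0.431 in polyA and -0.229 to 0.638 in rRNA-depleted RNA, with means of 0.26 and 0.294. For libraries with different numbers the means were -0.127 and -0.145. Deviations within a line sum to 0, so a positive mean for the same numbers brings a negative one for different numbers. The latter therefore adds no separate information. Each same-numbered pair of sg5 and sg6 was above 0.1 but not each such pair with WT, so the numbers were not taken as pairs. The means for the same numbers are still a hint of pairing from the data, not the design. With the replicate number as a block, 10 members were called in sg5 and 9 in sg6 in polyA and 6 and 3 in rRNA-depleted RNA, with 2 and 1 between the clones. The block added *Adamts6*, named here after its values were seen, in both clones in polyA (-1.18 and -1.05), which DESeq2 also called (-1.33 and -1.20), and in rRNA-depleted RNA *Mmp19* in sg6 (-1.09) and *Mmp16*, also named after its value was seen, in sg5 (-1.02). Depth limits the members under about 1 CPM, such as *Mmp9*, *Timp4* and *Mmp3*, whose values rest on under 100 counts a library.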
